A study of Mus musculus with 9 samples.

Results

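Nodal signalling in caudal epiblast-like cells was followed through 8 genes, Nodal, Gdf3, Tdgf1, Cfc1, Acvr2b, Foxh1, Lefty1 and Lefty2. They were chosen by gene symbol as ligands, co-receptors, a receptor, a nuclear partner and feedback inhibitors of the pathway, and all 8 were found among the 24736 genes of the deposited table. Caudal epiblast-like cells (CEpiLCs) are a culture model of the posterior cells from which the trunk forms, and bulk poly(A) RNA was sequenced from 9 cultures. The 3 groups, each of 3 biological replicates, were wild type (WT), CdxKO cells, with mutations of Cdx1, Cdx2 and Cdx4, and T/BraKO cells, in which T (Bra) was mutated. The WT cells were HM1 TetON, a male embryonic stem cell (ESC) line and the parent of the mutant lines. The labels name no other line of either mutant genotype, so line and mutation cannot be told apart. All 9 cultures received bFGF at 10 ng per ml and LGK974, which blocks WNT secretion, at 5 uM. The WNT agonist CHIR99021 was added after 2 days, and the cultures ended at 72 h, on day 3. No Nodal or Activin protein is listed among the additions.

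Nodal is a secreted TGF-beta family ligand that signals through type I and type II Activin receptors. It needs an EGF-CFC co-receptor, Tdgf1 (also named Cripto) or Cfc1 (Cryptic), and acts through phosphorylated SMAD2 and SMAD3 with SMAD4. These enter the nucleus and act with DNA-binding partners such as FOXH1. The pathway induces its own ligand as well as Lefty1 and Lefty2, secreted proteins that block Nodal at the receptor complex. In the mouse embryo it patterns the epiblast, induces mesoderm and endoderm in the primitive streak and later sets left-right asymmetry.

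Total expected counts ranged from 25124344 to 34705361 per library, with 18927 genes counted at all. The targeted genes were lower in their own mutants, by DESeq2. T fell by 2.42 on the log2 scale in T/BraKO (adjusted p = 7.83e-10, DESeq2), where 1777 to 2894 normalised counts remained. In CdxKO, Cdx1 fell by 0.98 and Cdx2 fell by 2.03 on the log2 scale (DESeq2, adjusted p = 0.00373 and 0.0147), and Cdx4 was at 1.25 to 1.88 normalised counts against 60.0 to 161 in WT. Of the 10 caudal epiblast markers 9 exceeded 3 counts in every library, the exception being Cdx4. The 6 primed epiblast and 10 naive pluripotency markers also exceeded 3 counts in every library. Summed naive markers were at 86.9 to 236 TPM and summed feeder fibroblast markers, of cells that the methods remove before differentiation, at 33.0 to 77.9 TPM. In bulk RNA, fewer cells of a type and less RNA per cell cannot be told apart.

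In WT CEpiLCs the pathway genes spanned a wide range of levels, given here as TPM, which accounts for transcript length. Foxh1, the DNA-binding partner of the SMADs, was the highest at 103 ± 1.62 TPM (mean ± SD, n = 3). Acvr2b, a type II receptor for Nodal and Activin, followed at 44.6 ± 6.85 TPM. Nodal was at 19.7 ± 10.2 TPM, Tdgf1 at 13.2 ± 7.55 TPM and Lefty1 at 12.1 ± 4.92 TPM, and the ranges of Nodal and Tdgf1, and of Tdgf1 and Lefty1, overlapped. Lefty2 was lower at 6.76 ± 0.556 TPM, and Gdf3, a ligand related to Nodal, was at 3.30 ± 1.94 TPM. Cfc1 was at 0.143 ± 0.183 TPM, which is 0, 1 and 5 counts in the 3 WT libraries. The order of the mean TPM was the same in CdxKO and T/BraKO, where the ranges of Lefty2 and Gdf3 also overlapped. Of the co-receptors, Tdgf1 was thus the one measured above the counting floor of 3 counts in all 9 libraries.

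The 8 genes were then compared between genotypes. With genotype as the only term in DESeq2, no member reached an adjusted p of 0.05 in any comparison. For CdxKO against WT the count was 0 of 8, where 0.693% of all genes tested were called. For T/BraKO against WT it was 0 of 8 beside 1.08%, and for CdxKO against T/BraKO it was 0 of 8 beside 3.48%. At an unadjusted p under 0.05 DESeq2 gave 0, 2 (Foxh1 and Lefty2) and 1 (Foxh1) of the 8. The edgeR quasi-likelihood test also called 0 of the 7 it tested in each comparison, beside 0.11%, 0.385% and 1.63% of all genes, with 0, 1 and 1 at an unadjusted p under 0.05. The median log2 fold change of the 8 members was -0.0028, 0.12 and -0.093 in the 3 comparisons, against -0.0023, 0 and -0.012 over all genes tested. The comparisons with WT share the WT libraries.

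Libraries with the same replicate number tended to lie on the same side of their group means, so each comparison was fitted again with that number as a blocking term. This block moved the counts of members called. In CdxKO against WT 0 members were called by DESeq2 with the block, beside 5.31% of all genes, and 2 (Gdf3 and Acvr2b) had an unadjusted p under 0.05. In T/BraKO against WT 2 were called, Tdgf1 higher and Lefty2 lower, beside 9.68% of all genes (4.83% higher and 4.85% lower). With Acvr2b and Foxh1, 4 members had an unadjusted p under 0.05 there. In CdxKO against T/BraKO 2 were called, Tdgf1 and Foxh1, both lower in CdxKO, beside 14.6% of all genes (6.9% lower). With edgeR and the block, which called 4.56%, 9.5% and 18.7% of all genes in the 3 comparisons, 0 members were called in CdxKO, 1 of these calls was kept in T/BraKO against WT (Lefty2) and 1 between the mutants (Foxh1).

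**Figure D1:**
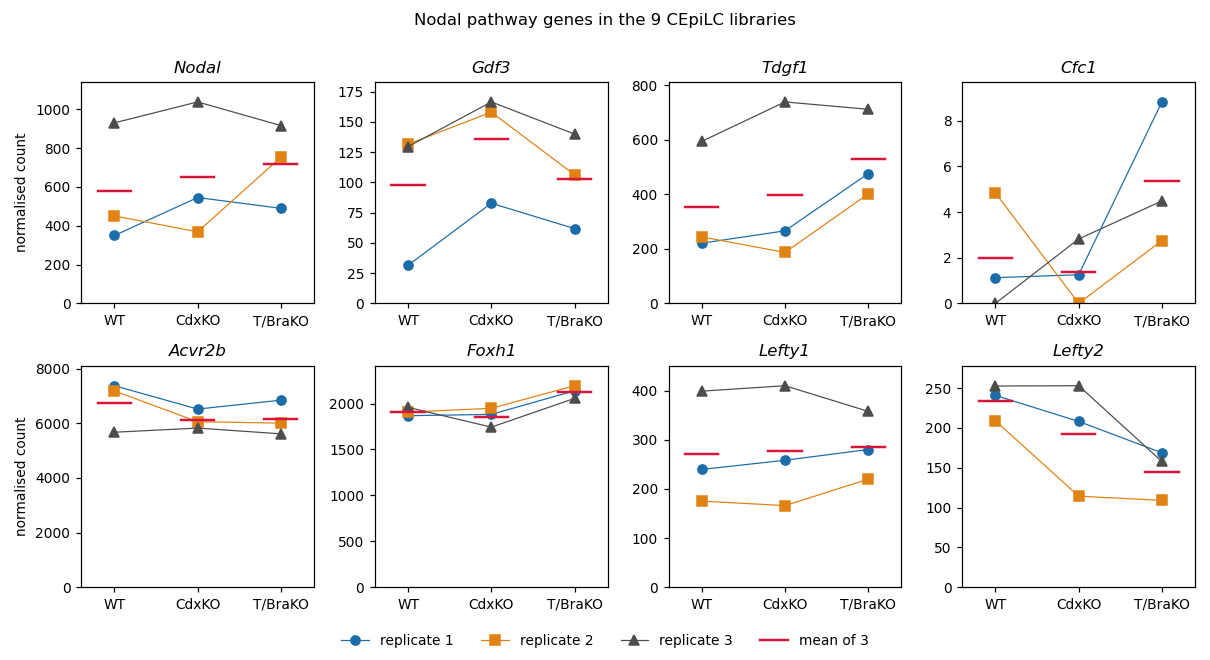
Normalised counts (vertical axis, linear from 0) of the 8 Nodal pathway genes in WT, CdxKO and T/BraKO CEpiLCs (horizontal axis). Each symbol is 1 library, lines join libraries with the same replicate number and red bars are means of 3. Replicate 3 is the highest in all 3 genotypes for Nodal, Tdgf1 and Lefty1, whereas Foxh1 differs little within a genotype.

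**Figure D2:**
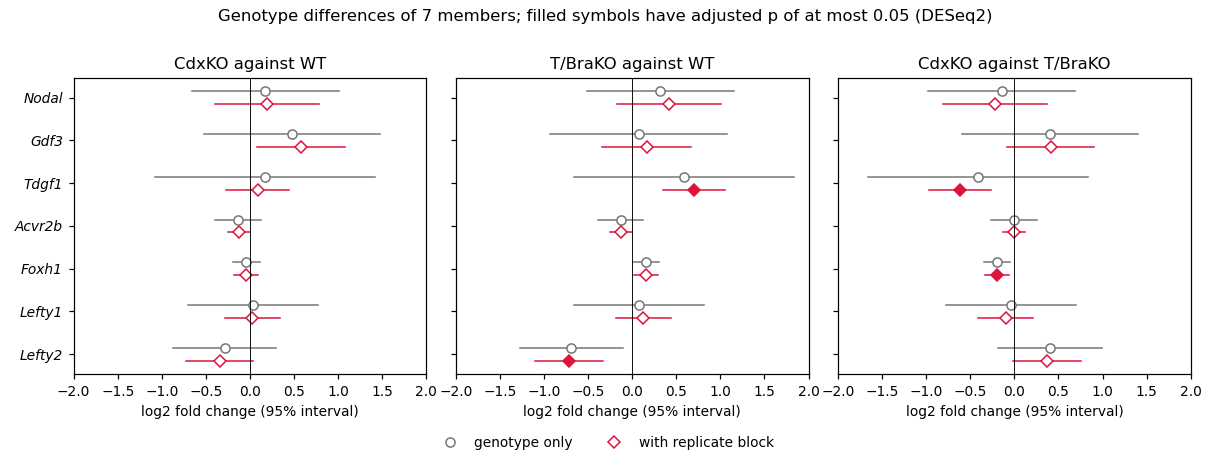
Log2 fold changes with 95% intervals (horizontal axis) of 7 members, without (grey circles) and with (red diamonds) the replicate block in DESeq2. Cfc1, at 0 to 8 counts, is left out. Filled symbols have an adjusted p of at most 0.05 and are seen only with the block, for Tdgf1 and Lefty2 in T/BraKO against WT and for Tdgf1 and Foxh1 in CdxKO against T/BraKO.

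Among the ligands, Nodal (GRCm38 chr10:61417972-61425338, plus strand) had 350, 451 and 930 normalised counts in WT replicates 1, 2 and 3. It had 545, 369 and 1038 in CdxKO and 490, 753 and 917 in T/BraKO. The 3 ranges overlapped almost completely, and the spread within each genotype exceeded the differences between their means. In T/BraKO against WT the log2 fold change was 0.32 with a 95% interval of -0.51 to 1.15, and in CdxKO against WT it was 0.17 with an interval of -0.66 to 1.00. With the block Nodal was at 1.34 times the WT level in T/BraKO (95% interval 0.888 to 2.01) and at 1.14 times in CdxKO (0.760 to 1.72), and was not called (DESeq2, adjusted p = 0.452 and 0.871). A doubling lay within both intervals without the block, whereas with it the upper limit was near a doubling in T/BraKO and below one in CdxKO. Gdf3 (chr6:122605403-122610087, minus strand), which can act with Nodal, had 31.5, 132 and 130 normalised counts in WT, 82.8, 158 and 167 in CdxKO and 61.8, 106 and 140 in T/BraKO. It was higher in CdxKO than in WT in each of the 3 same-numbered pairs, and the difference missed the threshold with the block (log2 fold change 0.58, SE 0.25, adjusted p = 0.216, DESeq2).

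The co-receptor Tdgf1 (chr9:110939603-110946158, minus strand) had 221, 244 and 594 normalised counts in WT, 266, 187 and 738 in CdxKO and 476, 401 and 711 in T/BraKO. Its counts were whole in all 9 libraries. The groups overlapped, but within each replicate number T/BraKO exceeded WT, by 2.16, 1.65 and 1.20 times in replicates 1, 2 and 3. Without the block the log2 fold change was 0.59 (SE 0.64, adjusted p = 1, DESeq2). With the block Tdgf1 rose by 1.63 times in T/BraKO (95% interval 1.27 to 2.07, adjusted p = 0.00246, DESeq2), whereas edgeR with the block gave an adjusted p = 0.0585. Between the mutants, Tdgf1 was 0.654 times as high in CdxKO as in T/BraKO with the block (95% interval 0.513 to 0.835, adjusted p = 0.00726, DESeq2; edgeR 0.0688). In replicate 3 this ratio was 1.04. The call against WT was lost in 5 of 9 fits that left out 1 library, namely WT replicate 1 or 3, CdxKO replicate 1 or T/BraKO replicate 1 or 2, with adjusted p of 0.0656 to 0.442 by DESeq2. The call between the mutants was lost in 4 of 9, without replicate 1 or 2 of either mutant (adjusted p of 0.226 to 0.417, DESeq2). The summed TPM of the 6 primed epiblast markers, cells in which Tdgf1 is also known to be expressed, was 893 to 1492 in WT and 1278 to 1905 in T/BraKO, and its part in the Tdgf1 result was not tested. Most of that sum was Pou5f1, at 690 to 1450 TPM over the 9 libraries. Cfc1 (chr1:34535648-34544313, plus strand) had 0 to 5 counts in WT, 0 to 3 in CdxKO and 3 to 8 in T/BraKO, too few for a comparison. On the opposite strand it overlaps Prss40 by 346 bases and a pseudogene, Gm28419, by 475 bases.

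The type II receptor gene Acvr2b (chr9:119402118-119434995, plus strand) had 7378, 7187 and 5674 normalised counts in WT, 6522, 6060 and 5826 in CdxKO and 6848, 6008 and 5616 in T/BraKO. The mutants overlapped with WT, and the log2 fold changes of -0.14 and -0.13 had 95% intervals of -0.39 to 0.12 and -0.39 to 0.13. Between the mutants the difference was -0.0049 (interval -0.26 to 0.25). With the block Acvr2b was at 0.914 times the WT level in CdxKO (95% interval 0.838 to 0.997) and 0.915 times in T/BraKO (0.839 to 0.997). It was not called (unadjusted p = 0.0417 and 0.0431, adjusted p = 0.299 and 0.214, DESeq2 with the block). An antisense gene, Gm47320, overlaps Acvr2b by 3909 bases, and the reads were strand-specific.

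Foxh1 (chr15:76668225-76669948, minus strand) had 1868, 1907 and 1959 normalised counts in WT, 1882, 1948 and 1743 in CdxKO and 2139, 2195 and 2057 in T/BraKO. All 3 T/BraKO libraries lay above all WT and all CdxKO libraries. Such non-overlapping groups were seen for 9.92% of the 12316 genes averaging at least 50 normalised counts in T/BraKO against WT and for 15.5% in CdxKO against T/BraKO. The difference was small, at 0.16 on the log2 scale against WT (SE 0.077, unadjusted p = 0.0434, adjusted p = 0.918, DESeq2). T/BraKO was at 1.11 times the WT level with the block and was not called (95% interval 1.01 to 1.22, unadjusted p = 0.0273, adjusted p = 0.161, DESeq2). With the block Foxh1 was 0.872 times as high in CdxKO as in T/BraKO (95% interval 0.792 to 0.959, adjusted p = 0.0369 by DESeq2 and 0.0292 by edgeR). That call was lost in 7 of 9 fits without 1 library, all but those without WT replicate 2 or 3, with adjusted p of 0.0571 to 0.280 by DESeq2 and ratios that stayed below 1.

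The feedback inhibitors Lefty1 (chr1:180935022-180938400, plus strand) and Lefty2 (chr1:180893108-180899103, plus strand) come next, and no test compared the change of one with that of the other. Lefty1 had 240, 175 and 399 normalised counts in WT, 258, 166 and 410 in CdxKO and 280, 220 and 358 in T/BraKO, and its log2 fold change in T/BraKO against WT was 0.076 (95% interval -0.66 to 0.81). Lefty2 had 241, 209 and 253 in WT, 208, 114 and 253 in CdxKO and 169, 109 and 158 in T/BraKO. All 3 T/BraKO libraries lay below all 3 WT libraries, a pattern that held for 9.92% of the 12316 genes in either direction, whereas CdxKO overlapped with both. Without the block the log2 difference in T/BraKO was -0.69 (SE 0.30, unadjusted p = 0.0206, adjusted p = 0.649, DESeq2). With the block Lefty2 fell to 0.609 times the WT level (95% interval 0.467 to 0.795, adjusted p = 0.00563 by DESeq2 and 0.0234 by edgeR). The call was lost in 2 of 9 fits without 1 library, without WT replicate 2 (log2 fold change -0.53, adjusted p = 0.237, DESeq2) and without T/BraKO replicate 3 (-0.64, adjusted p = 0.138, DESeq2).

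Lefty1 and Lefty2 are neighbouring paralogues, and the reads of 76 bases could not always be assigned to 1 of them. Their GENCODE coding sequences, each 1104 bases long, were identical at 1014 aligned bases (91.8%), and the translated proteins at 331 of 368 residues (89.9%). Of the 1029 read-length windows in the Lefty1 coding sequence 169 (16.4%) also occur unchanged in Lefty2. Over whole transcripts the shared windows were 10.9% of those in Lefty1 and 7.05% of those in Lefty2. The sequences below show the exonic coding window of read length in which the genes differ most, at 23 of 76 bases, and the first window in which they do not differ. In the different window, at chr1:180935158-180935233 for Lefty1 and chr1:180893232-180893307 for Lefty2 (GRCm38, plus strand), capitals mark the bases that differ. The identical window lies at chr1:180936568-180936643 in Lefty1 and chr1:180894156-180894231 in Lefty2.
Lefty1: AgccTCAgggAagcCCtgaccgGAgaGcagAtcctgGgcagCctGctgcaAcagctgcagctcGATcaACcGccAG
Lefty2: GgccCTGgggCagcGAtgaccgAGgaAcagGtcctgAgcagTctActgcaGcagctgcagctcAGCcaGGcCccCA
Lefty1 and Lefty2: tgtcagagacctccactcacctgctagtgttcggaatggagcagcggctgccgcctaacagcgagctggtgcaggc

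The deposited expected counts carry this ambiguity, because both genes had fractional counts in all 9 libraries while their sum was a whole number. Lefty2 took 50.1%, 54.3% and 38.8% of the summed counts in WT replicates 1, 2 and 3, 44.7%, 40.6% and 38.1% in CdxKO and 37.7%, 33.1% and 30.7% in T/BraKO. The T/BraKO shares lay below all WT shares, and replicate 3 had the lowest share in each genotype. When both genes were counted as 1 feature, a setting added after seeing the data, the log2 fold change in T/BraKO against WT was -0.23 (adjusted p = 1, DESeq2) and -0.22 with the block (SE 0.13, adjusted p = 0.342, DESeq2). The fall of Lefty2 with the block was thus not called for the sum of the inhibitors, and how far the division of shared reads enters it was not tested.

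**Figure D3:**
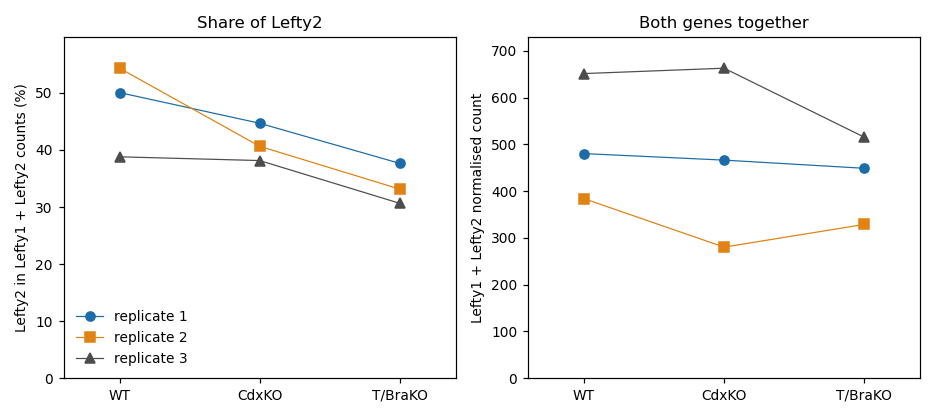
Left, the share of Lefty2 in the summed expected counts of Lefty1 and Lefty2 (percent, linear axis from 0) in the 9 libraries. Right, the normalised count of both genes together. Each symbol is 1 library and lines join the same replicate number. The share is 30.7% to 37.7% in T/BraKO and 38.8% to 54.3% in WT, whereas the sums overlap.

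Most of these genes differed between replicate numbers. In a DESeq2 likelihood ratio test of replicate number with genotype in the model, 6 of the 8 members were called, beside 47.9% of all genes tested, and edgeR also called 6, beside 56% of all genes. The labels call the libraries biological replicates and do not say what libraries of the same number share, nor whether they came from separate differentiations. All 9 titles carry the same experiment tag. The study's methods give at least 3 independent experiments for its statistical analyses in general, without saying how these libraries map to them. Nodal was called (adjusted p = 0.00136, DESeq2) and was 2.12 times as high in replicates 3 as in replicates 1, and 1.89 times as high as in replicates 2. Tdgf1 followed the same pattern, with ratios of 2.25 and 2.58 (adjusted p = 7.51e-15, DESeq2), as did Lefty1 with 1.50 and 2.09 (adjusted p = 1.16e-09, DESeq2). These 3 genes were highest in replicate 3 in all 3 genotypes, a pattern that 21.2% of the 12316 genes shared. The ligand, its co-receptor and 1 of its inhibitors were thus high in the same libraries. Lefty2 was lowest in replicate 2 in every genotype (26% of genes) and had a ratio of 1.56 between replicates 3 and 2 (adjusted p = 0.0073, DESeq2). Gdf3 differed in another way, being lowest in replicate 1 in all genotypes (8.44% of genes) and 2.55 times as high in replicates 3 (adjusted p = 3.13e-06, DESeq2). Acvr2b ran opposite, highest in replicate 1 (8.82% of genes) and lowest in replicate 3 (19.2% of genes) in all genotypes, at 0.827 times the level (adjusted p = 0.00036, DESeq2). Foxh1 was not called (adjusted p = 0.678, DESeq2), with ratios of 0.978 and 0.952, and Cfc1 received no adjusted p. Nodal was no longer called without WT replicate 3 or CdxKO replicate 3 (DESeq2, adjusted p = 0.0722 and 0.0632), nor Lefty2 without replicate 2 of CdxKO or T/BraKO (DESeq2, adjusted p = 0.224 and 0.0543). The other 4 calls held without any 1 library.

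Of 42 other pathway genes tested, 20 were called for replicate number by DESeq2 and 28 by edgeR, beside 47.9% and 56% of all genes. Among them were 10 of 11 listed target genes by DESeq2, all but Mesp1 (adjusted p = 0.0854 by DESeq2 and 0.0296 by edgeR), and 11 by edgeR. Of these targets, 7 (Eomes, Mixl1, Gsc, Foxa2, Lhx1, Hhex and Otx2) were highest in replicate 3 in all 3 genotypes, as were 21.2% of the 12316 genes. Another 3 (Sox17, Mesp1 and Cxcr4) were highest in replicate 1 in all 3 genotypes, a pattern of 8.82% of the 12316 genes. Cxcr4 was 0.620 times as high in replicates 3 as in replicates 1, and 2.01 times as high as in replicates 2. Otx2, an anterior epiblast transcription factor, was 4.06 and 3.74 times as high in replicates 3 as in replicates 1 and 2 (adjusted p = 4.11e-26, DESeq2). Eomes, a T-box factor of the primitive streak, had ratios of 2.19 and 2.87 (adjusted p = 1.27e-18, DESeq2). Mixl1 and Lhx1, homeobox genes of the streak and its derivatives, were 3.73 and 6.56 times as high in replicates 3 as in replicates 2 (DESeq2, adjusted p = 0.000255 and 0.000357). Their log2 differences of replicates 3 from replicates 1 were smaller, at 0.760 (SE 0.412) and 0.678 (SE 0.570). Both genes were lowest in replicate 2 in all 3 genotypes, as were 26% of the 12316 genes. Cer1, a secreted Nodal antagonist at 1.79 to 66.2 normalised counts, was 10.4 times as high in replicates 3 as in 2 and 1.20 times as high as in replicates 1. Without 1 library Sox17 was called in 2 of 9 fits and Gsc in 7, whereas Eomes, Mixl1, Foxa2, Lhx1, Hhex, Otx2 and Cxcr4 were called in all 9. Summed primed epiblast markers, which include Otx2, were 1492 to 1905 TPM in replicates 3, 893 to 1278 in replicates 1 and 1028 to 1483 in replicates 2. Most of this sum was Pou5f1, at 690 to 1450 TPM over the 9 libraries, whereas Otx2 was at 2.42 to 14.8 TPM. Summed endoderm markers, which include Sox17 and Foxa2, were 9.61 to 21.9 TPM in replicates 3, 4.68 to 14.2 in replicates 1 and 3.72 to 9.43 in replicates 2. Foxa2 alone was at 7.19 to 18.8 TPM in replicates 3, 1.87 to 10.1 in replicates 1 and 1.61 to 7.57 in replicates 2. Each other endoderm marker reached at most 1.75 TPM, so this sum is not a measure apart from Foxa2. The part of either group of markers in the differences between replicate numbers was not tested.

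**Figure D4:**
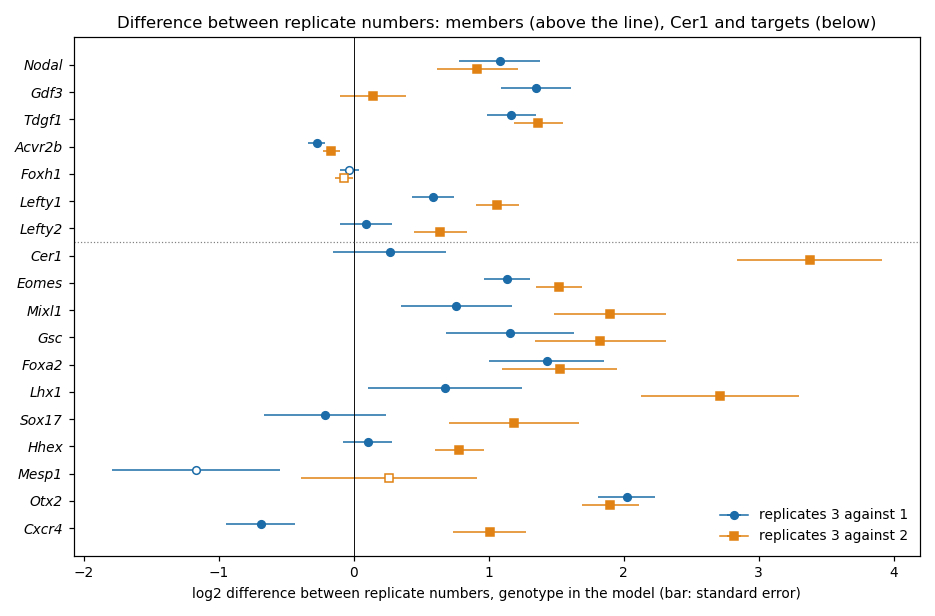
Log2 differences between replicate numbers with genotype in the DESeq2 model (horizontal axis, bars are standard errors) for 7 members above the dotted line and for Cer1 and 10 target genes below it. Blue circles compare replicates 3 with 1 and orange squares replicates 3 with 2, and filled symbols mark genes with an adjusted p of at most 0.05 for replicate number. Most symbols lie to the right of 0, and Acvr2b is among the exceptions.

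Across the 9 libraries, which share replicate numbers and a WT group, the log levels of Nodal and Tdgf1 correlated at r = 0.910, those of Tdgf1 and Lefty1 at 0.888, and those of Nodal and Lefty1 at 0.808. Nodal and Acvr2b correlated at -0.797. Because Nodal and Tdgf1 moved together, the 250 bases before their start sites are shown, from RefSeq promoter windows on GRCm38.p6, which were found for 4 of the 8 members. The windows of 300 bases were searched on both strands for FOXH1 (AATNCACA), SMAD (CAGAC), TCF/LEF (CTTTGA), T-box (GGTGTGA), CDX (TTTATNG), SOX (CATTGT) and POU (ATTTGCAT) motifs, and capitals mark matches. The Nodal sequence is chr10:61417722-61417971 (plus strand) and that of Tdgf1 is chr9:110946159-110946408 (minus strand), both written along the gene.
Nodal: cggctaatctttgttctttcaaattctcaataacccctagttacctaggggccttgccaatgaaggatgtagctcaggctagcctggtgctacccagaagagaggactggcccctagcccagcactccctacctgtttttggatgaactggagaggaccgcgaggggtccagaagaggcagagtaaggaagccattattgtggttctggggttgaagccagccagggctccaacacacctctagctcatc
Tdgf1: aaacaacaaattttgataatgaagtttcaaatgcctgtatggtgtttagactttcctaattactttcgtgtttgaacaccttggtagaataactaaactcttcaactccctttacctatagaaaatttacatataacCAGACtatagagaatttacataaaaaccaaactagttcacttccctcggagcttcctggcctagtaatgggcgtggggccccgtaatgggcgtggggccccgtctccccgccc

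Tdgf1 held 1 SMAD match, at -113 to -109 from the start, and none of the 7 motifs was found in the Nodal window. Acvr2b and Cfc1 also held 1 SMAD match each and no other. The SMAD letters occur in 49.6% of 32851 promoter windows, against 3.60% for FOXH1, 3.98% for T-box, 10.9% for CDX, 16.0% for TCF/LEF, 12.6% for SOX and 1.74% for POU. A match is a run of letters in a window and says nothing about binding.

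The wider pathway was described by 43 other genes, of ligands, processing enzymes, receptors, SMADs, inhibitors, partners and targets. Without the block DESeq2 called 0 of 43 in each of the 3 comparisons, with 6, 2 and 8 at an unadjusted p under 0.05 for CdxKO against WT, T/BraKO against WT and CdxKO against T/BraKO, and edgeR also called 0 of the 42 it tested. With the block, 4 were called in CdxKO against WT, all higher, 4 in T/BraKO against WT, 1 higher and 3 lower, and 8 in CdxKO against T/BraKO, 6 higher and 2 lower. With edgeR and the block the counts were 4, 4 and 9. DESeq2 with the block gave an adjusted p to 42, 34 and 43 of the 43 genes in the 3 comparisons. The shares of all genes called with the block are those given for the members, 5.31%, 9.68% and 14.6% by DESeq2 and 4.56%, 9.5% and 18.7% by edgeR.

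In T/BraKO against WT 34 of the 43 other genes, among them 8 of the 11 targets, received an adjusted p from DESeq2 with the block. Of the 4 called, 3 were targets, where 9.68% of all genes were called. Eomes had 218, 165 and 520 normalised counts in WT, 273, 131 and 511 in CdxKO and 455, 511 and 1084 in T/BraKO. Each T/BraKO library was at least 2.08 times as high as the WT library of the same number, although the groups overlapped. Eomes rose by 2.39 times in T/BraKO (adjusted p = 2.81e-11, DESeq2 with the block; log2 change 1.26, SE 0.17) and remained called without any 1 library. Foxa2, an endoderm and node transcription factor, had 128, 220 and 348 in WT, 291, 155 and 555 in CdxKO and 55.2, 46.7 and 215 in T/BraKO, and fell by 1.40 on the log2 scale in T/BraKO (SE 0.43, adjusted p = 0.0187, DESeq2 with the block). These called targets thus went both ways within 1 comparison. Nedd4l, a ubiquitin ligase that acts on SMADs, fell by 0.38 on the log2 scale (adjusted p = 0.00521, DESeq2 with the block). Leaving out 1 library removed the call of Foxa2 in 3 of 9 fits and of Nedd4l in 4. Summed paraxial mesoderm markers were 41.5 to 71.8 TPM in T/BraKO and 108 to 200 in WT, and summed endoderm markers, Foxa2 included, were 3.72 to 9.61 and 8.72 to 14.4 TPM. Foxa2 alone was at 1.61 to 7.19 TPM in T/BraKO and 4.41 to 11.55 in WT. Each other endoderm marker reached at most 1.75 TPM, so the endoderm sum is not a measure apart from Foxa2. The part of these markers in the results was not tested.

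In CdxKO the called genes were a convertase and inhibitors, by DESeq2 with the block. They held 2 of the 12 listed intracellular inhibitors and 1 of the 5 extracellular ones, where 5.31% of all genes were called. These counts are small and were not tested as sets. Smad7, an inhibitory SMAD, had 106, 104 and 112 normalised counts in WT and 133, 222 and 199 in CdxKO, and rose by 1.70 times (log2 fold change 0.77, SE 0.21, adjusted p = 0.01, DESeq2 with the block). Skil, a SMAD co-repressor, had 3106, 3655 and 3695 in WT and 4360, 4102 and 4864 in CdxKO and rose by 1.28 times (adjusted p = 0.000184, DESeq2 with the block). Furin, a convertase that can cleave the Nodal precursor, had 1108, 1286 and 953 in WT and 1579, 1384 and 1307 in CdxKO and rose by 1.28 times (adjusted p = 0.00975 by DESeq2 and 0.0559 by edgeR, both with the block). For all 3 genes the CdxKO libraries lay above the WT libraries, as they did for 9.87% of genes in either direction. Leaving out 1 library removed the call of Skil in 1 of 9 fits, of Smad7 in 4 and of Furin in 5. The fourth gene, Fstl3, a secreted inhibitor of Activin, had a mean of 44.4 normalised counts in CdxKO and 17.4 in WT, under the level set for named genes, and was named after its values were seen. The 4 genes called by edgeR with the block held Inhbb, a listed ligand gene, in place of Furin. Its means of 38.8 in CdxKO and 16.4 in WT were also under that level. For Inhbb the adjusted p was 0.0301 by edgeR and 0.0925 by DESeq2, both with the block.

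Between the mutants, Eomes fell by 1.25 on the log2 scale in CdxKO relative to T/BraKO (adjusted p = 2.06e-11, DESeq2 with the block). Foxa2 was higher in CdxKO by 1.83 on the log2 scale (adjusted p = 0.000421, DESeq2 with the block). Furin, Fst, Nedd4l and Skil were higher in CdxKO by 0.27 to 0.42 on the log2 scale, and Smad4, the common SMAD, fell by 0.17 (adjusted p = 0.0197, DESeq2 with the block). The calls of Eomes and Foxa2 held without any 1 library, whereas those of Furin, Nedd4l, Skil, Smad4 and Fst were lost in 1, 3, 4, 4 and 6 of 9 fits.

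**Figure D5:**
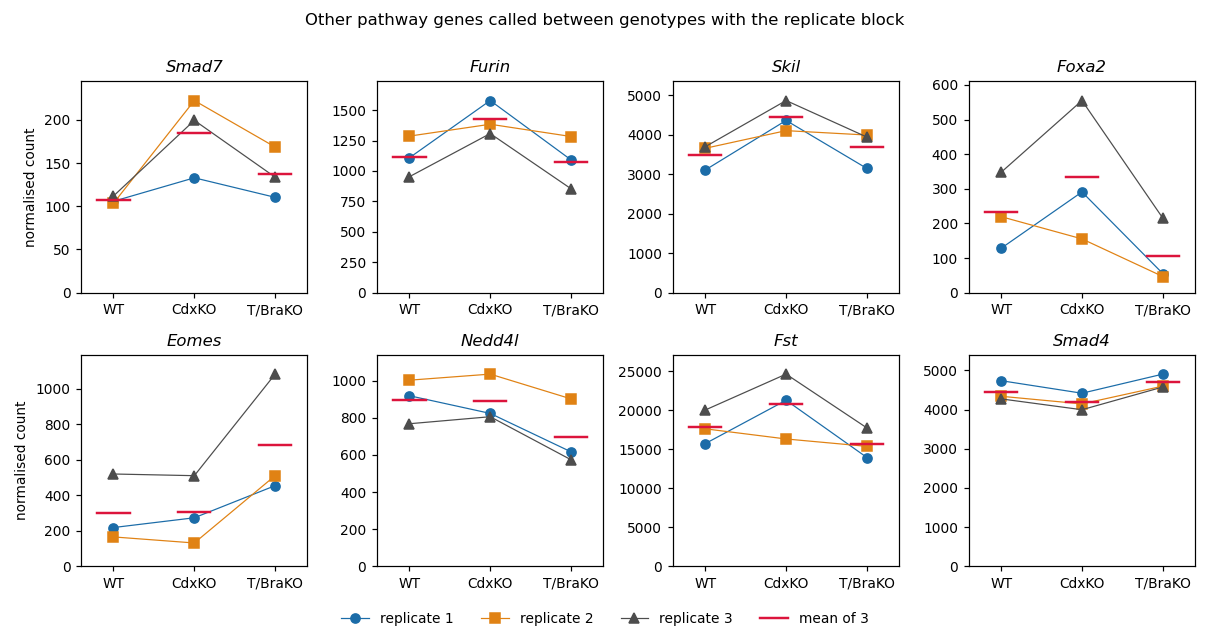
Normalised counts (vertical axes, linear from 0) in WT, CdxKO and T/BraKO (horizontal axis) of 8 other pathway genes that were called between genotypes with the replicate block and passed the level for named genes. Symbols are libraries, lines join the same replicate number and red bars are means of 3. Eomes is higher in T/BraKO than in WT for each replicate number, and Foxa2 is lower.

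The genes whose log levels were most like each member were taken from 12309 genes over the 9 libraries. For Nodal these were Emb (r = 0.978), Tmem8, Bcat2, Fam60a and L1td1, for Tdgf1 Vwa2 (r = 0.975), U2af1, Armc6 and Zc3h8, and for Lefty1 Mak16 (r = 0.983), Adk, Pak1ip1, Smu1 and Asna1. Lefty2 was most like Zfp715 (r = 0.957), Gdf3 most like Kcnk6 (r = 0.948), Acvr2b most like Ncoa2 (r = 0.963) and Foxh1 most like Wee1 and Sp5 (r = 0.948 and 0.945). These values describe 9 libraries in 3 replicate numbers and 3 genotypes, which are not independent points.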

How the data were processed

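Poly(A) RNA of 9 CEpiLC cultures was sequenced as single-end, strand-specific reads of 76 bases. Per the labels and the study's methods, the authors trimmed adapters with cutadapt 1.16 and quantified reads with RSEM 1.3.0 and STAR 2.5.2a against RefSeq genes of mm10. The deposited table holds expected counts per gene, which are estimates and need not be whole where reads are shared between genes (3.75% to 4.00% of the values per library were fractional), and TPM.

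The deposited expected counts were rounded and tested in R 4.3.3 with DESeq2 1.42.0 (Wald test, unshrunken log2 fold changes, Benjamini-Hochberg adjusted p of at most 0.05 over all genes tested), which the study's methods name, with genotype as the only term and all 9 libraries in the fit. The edgeR 4.0.16 quasi-likelihood test, TMM factors, a minimum of 10 counts in 3 libraries, fits to the 6 libraries compared, the replicate block, the log2 ratio of mean deposited TPM + 0.1 and leaving out each library were alternatives. The deposited TPM served otherwise for levels only. Libraries were grouped by the genotype in their labels and numbered as in their titles. Over 12316 genes averaging at least 50 normalised counts, deviations from group means correlated at 0.532 to 0.814 in the 9 pairs of libraries with the same number and at -0.690 to 0.134 in the 18 other pairs, so the numbers were taken to pair the libraries. That pairing comes from these data and not from the labels. Deviations of 3 libraries from their own mean sum to 0, so negative values in the other pairs follow from positive ones in the same-numbered pairs. The other pairs are thus not separate evidence of pairing. No libraries agreed within sampling noise.

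The text names all 8 members, the targeted genes and, per comparison, up to 8 other pathway genes called without or with the block, by largest absolute log2 fold change, averaging at least 50 in the higher group. For each member but Cfc1 it also names up to 5 of the genes most like it. Targets, Cer1, markers, Fstl3 and Inhbb are named to describe the lists. Values of a few listed genes are left out here. The members and lists were chosen with earlier results of these data known. Depth put the floor of 3 counts at 0.0864 to 0.119 CPM, which covers counting error only. Coordinates and coding sequences are from GENCODE M21 on GRCm38, the assembly of mm10. Translated proteins were compared, and no residues are printed. Scripts were tested on simulated data.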

Additional observations from a re-analysis of the deposited data

Results flagged for a closer look

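The genes below differed directly between CdxKO and T/BraKO in DESeq2 with the replicate block, which is a test of the difference between the effects of the mutants. None was called without the block, and no explanation was tested.

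Among the members, the log2 difference of CdxKO from T/BraKO was -0.61 for Tdgf1 (SE 0.18) and -0.20 for Foxh1 (SE 0.070). Among the other pathway genes it was 1.83 for Foxa2 (SE 0.43) and -1.25 for Eomes (SE 0.17), both of them targets. Smaller differences were 0.42 for Furin, 0.40 for Fst, 0.36 for Nedd4l, 0.27 for Skil and -0.17 for Smad4. Adjusted p ranged from 2.06e-11 for Eomes to 0.0369 for Foxh1 (DESeq2 with the block).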

How the results depend on the processing

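The replicate block was the setting that moved most counts. Since replicate numbers paired the libraries in these data, members called were 2 with DESeq2 and the block and 1 with edgeR and the block, both in T/BraKO against WT and in CdxKO against T/BraKO, against 0 without it. Other pathway genes called went from 0 to 4, 4 and 8 in CdxKO against WT, T/BraKO against WT and CdxKO against T/BraKO with the block, and to 4, 4 and 9 with edgeR and the block. All genes called in the same order were 116, 205 and 558 as reported, 736, 1237 and 2187 with the block, 663, 1382 and 2724 with edgeR and the block, and 16, 56 and 237 with edgeR alone. Leaving out 1 library gave 59 to 140, 118 to 214 and 370 to 630 genes, 0 to 1, 0 to 1 and 0 to 2 other pathway genes, and 0 members in every comparison. Without WT replicate 1 the genes called were 59 and 118 against WT, without WT replicate 2 they were 127 in T/BraKO, without CdxKO replicate 1 they were 65 in CdxKO, and without T/BraKO replicate 1 they were 370 between the mutants. For replicate number, leaving out 1 library gave 5 to 6 members and 5279 to 6211 genes. Within the blocked fit, leaving out 1 library gave 0, 1 to 2 and 0 to 2 members called. These fits and those summing Lefty1 with Lefty2 were added after seeing the data. No result changed direction while called. With TMM factors, the count filter and the fits to 6 libraries, 0 members were called in each genotype comparison, and TMM factors moved the median log2 fold change of all genes by at most 0.01. With 3 libraries per genotype and a wide spread within genotypes, a doubling of Nodal lay within the intervals against WT without the block, and Cfc1 was at or near the counting floor.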
